A study of Rattus norvegicus with 6 samples.

Results

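The let-7 and miR-98 family of rat microRNAs (miRNAs) was described in small RNA libraries from testis. Its members were the entries of the deposited miRNA table whose name was let-7 with one of the letters a to i, or miR-98, on either arm of the hairpin. This rule found 21 of the 721 entries, 9 from the 5p arm and 12 from the 3p arm, and it used names only and no measured value. The whole table held 539 named and 182 predicted miRNAs.

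Testis of Sprague-Dawley rats was profiled in 6 samples, 3 diabetic and 3 normal, with 1 library per sample. The diabetic rats had STZ-induced diabetes of 8 weeks, STZ being streptozotocin, a toxin of the insulin-producing beta cells. According to the methods of the paper taken to describe these data, these rats had first been fed a high-fat diet and then received a single STZ injection, whereas control rats were injected with citrate buffer. Whether the controls were also fed the high-fat diet was not given in the sources used here, so diet and STZ cannot be told apart. The rats were adult males per the study, with no age in weeks given. The labels give no transgene or mutant allele for either group. Whole testis holds germ, Sertoli, Leydig, peritubular and vascular cells together, so fewer cells of a type and less of a miRNA per cell cannot be told apart.

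The let-7 miRNAs are among the most conserved animal miRNAs. A hairpin precursor is cut into a 5p and a 3p strand, and one of them, usually the 5p strand for let-7, is loaded into an Argonaute protein and guides it to messenger RNAs, mainly through pairing of the seed, bases 2 to 8 from the 5′ end. The RNA-binding proteins LIN28A and LIN28B block maturation of let-7 in stem and progenitor cells, and let-7 rises as cells differentiate, in spermatogonia as well. Known targets include Lin28a itself, Hmga2, Ras genes and the insulin and insulin-like growth factor receptors, through which the LIN28 and let-7 axis is known to act on glucose metabolism.

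The sequences show how alike the members are, which bears on every value below, since reads must be told apart by a few bases. Mature sequences were found for 20 of the 21 members in RefSeq (assembly GRCr8), the exception being let-7c-1-3p. All 9 5p members share 1 seed, GAGGUAG, shown here in capitals 5′ to 3′.
rno-let-7a-5p: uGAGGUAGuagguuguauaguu
rno-let-7b-5p: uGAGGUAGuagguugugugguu
rno-let-7c-5p: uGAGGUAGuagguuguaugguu
rno-let-7d-5p: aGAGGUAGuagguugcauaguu
rno-let-7e-5p: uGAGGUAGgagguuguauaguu
rno-let-7f-5p: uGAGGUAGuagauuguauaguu
rno-let-7g-5p: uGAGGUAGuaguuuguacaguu
rno-let-7i-5p: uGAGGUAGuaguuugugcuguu
rno-miR-98-5p: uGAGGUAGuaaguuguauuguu

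Counted from 1 at the 5′ end and with let-7a-5p as the reference, let-7c-5p differs by A19G, let-7e-5p by U9G and let-7f-5p by G12A, 1 base each. let-7b-5p differs by A17G and A19G, let-7d-5p by U1A and U16C, and miR-98-5p by G11A and A19U. let-7g-5p differs by G12U and U18C. let-7i-5p shares both of these and adds A17G and A19U, 4 differences in all. No other entry with a RefSeq mature sequence (492 of the 721 entries had one) carried the seed of any member, so 0 non-members had to be set beside them.

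The 3p strands are more varied, with 6 seeds over the 11 members with a sequence. Those that the comparisons turn on are given below with bases 2 to 8 in capitals.
rno-let-7d-3p: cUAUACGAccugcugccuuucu
rno-let-7g-3p: cUGUACAGgccacugccuugc
rno-let-7a-1-3p: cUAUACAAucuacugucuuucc
rno-let-7c-2-3p: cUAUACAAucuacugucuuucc

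The last pair is identical over all 22 bases, and yet the table held separate values for them. let-7a-1-3p had 35, 24 and 50 reads in diabetic replicates 1, 2 and 3 and 31, 40 and 40 in normal replicates 1, 2 and 3. let-7c-2-3p had 30, 38 and 39 and then 31, 47 and 36. How the authors assigned reads of 1 mature sequence to 2 hairpins was not given in the sources used here, so each of these values is uncertain, and so to a lesser degree are those of the 5p members that differ by 1 base. In RefSeq, the genes of let-7a-1, let-7f-1 and let-7d lie together on chromosome 17 inside 1 long noncoding RNA gene, LOC120097935. Those of let-7f-2 and miR-98 lie together on chromosome X inside Huwe1, a ubiquitin ligase gene. The let-7g gene lies on chromosome 8 inside the gene bodies of Wdr82 and Rpl29, and the let-7i gene on chromosome 7, each with no other miRNA gene within 10 kb. In RefSeq the let-7f-1 strands belong to a gene named Mirlet7f-1os, and another miRNA gene, named Mirlet7f-1, lies within 10 kb of it. Whether the counting used strand was not stated.

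Values are in CPM, in which the reads of each library are scaled so that all libraries have 1 common total over the listed miRNAs. Whole reads could be recovered from them, and the libraries held from 305476 to 549446 reads, so that 1 read was worth from 1.82 to 3.27 CPM. Testis markers were present: a list of 6 miRNAs of germ cells, the strands of miR-34b, miR-34c, miR-449a and miR-449c, summed to between 311912 and 333840 CPM in diabetic and between 306978 and 355976 CPM in normal libraries, and all 11 of a second list of testis miRNAs had reads in all 6 libraries. The sum of that second list was higher in the diabetic libraries (86287 to 93685 against 76947 to 80761 CPM). So was the sum of the 2 endothelial strands of miR-126a (11722 to 13783 against 8662 to 11086 CPM). The liver miRNA miR-122-5p was lower (935.5 to 1372 against 1839 to 2786 CPM). A sum does not show which miRNAs of its list were higher. Among single levels the groups did not overlap for 14.9% of all miRNAs tested below. The groups overlapped for the lists of peritubular and smooth muscle cells (85368 to 95342 against 78599 to 96768 CPM), red blood cells (544.2 to 782.3 against 677.7 to 740.9 CPM) and leucocytes (494.6 to 651.5 against 591.6 to 762.0 CPM). They also overlapped for skeletal muscle (27.2 to 65.4 against 22.6 to 34.0 CPM), brain (444.0 to 828.2 against 480.5 to 739.0 CPM) and the pancreatic endocrine marker miR-375-3p (1152 to 1384 against 820.6 to 1299 CPM). The part of these shifts in the values below was not tested.

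The family was abundant and almost wholly 5p. It took 8.60% of reads in diabetic replicate 1 (95% Wilson interval 8.50 to 8.70), 7.94% in replicate 2 (7.85 to 8.02) and 8.31% in replicate 3 (8.24 to 8.38). In normal replicates 1, 2 and 3 it took 8.05% (7.97 to 8.13), 8.44% (8.36 to 8.52) and 7.11% (7.04 to 7.18). Normal replicate 3 was thus lowest of all, and the 2 groups overlapped. Intervals of this kind cover counting error at most, and not the spread between libraries. The reads are not known to carry molecular identifiers, so they need not be separate molecules. The 5p members summed to 82314 ± 3281 CPM under diabetes and 78248 ± 6851 CPM in the normal group (mean ± SD over 3 libraries). The difference of 4066 CPM was smaller than the spread between normal libraries, and without normal replicate 3 it was 263.9 CPM.

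**Figure D1:**
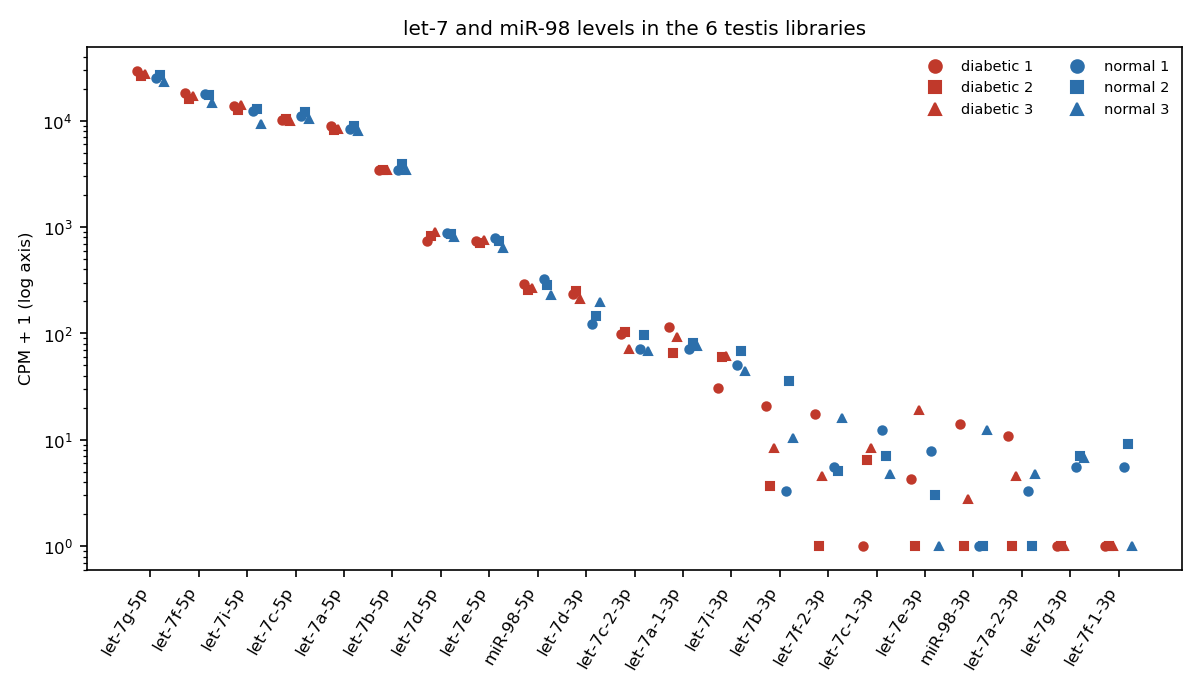
Level of each of the 21 members in the 6 libraries, as CPM + 1 on a log axis, with members ordered by their mean. Points are single libraries, red for diabetic and blue for normal; the 9 5p members fill the left side, and the 8 members on the right, from let-7b-3p on, scatter near the value of a few reads.

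let-7g-5p was the leading member and ranked 8 among all 721 entries by mean CPM. It was followed by let-7f-5p (rank 12), let-7i-5p (15), let-7c-5p (20), let-7a-5p (24) and let-7b-5p (40). let-7d-5p (91), let-7e-5p (99) and miR-98-5p (143) were scarcer than let-7c-5p by an order of magnitude or more. One read covers a whole mature miRNA of 21 or 22 bases, so CPM values of members can be compared without a length term, although adaptor ligation is known to favour some end sequences. The order of let-7g-5p, let-7f-5p and let-7i-5p held in 6 of 6 libraries, as did the order of let-7c-5p, let-7a-5p and let-7b-5p. let-7i-5p stood above let-7c-5p in 5 of 6, normal replicate 3 being the exception. let-7d-5p exceeded let-7e-5p in 6 of 6 libraries, but their ranges overlapped.

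The comparison of diabetic with normal testis asked which members changed. Of the 21 members, 20 passed the filter of at least 1 CPM in at least 3 libraries and were tested with limma together with all other miRNAs (578 in all). Of the 20, 0 had an adjusted p under 0.05, the smallest being 0.348 with Benjamini-Hochberg adjustment over all 578, and the same held for 0% of all miRNAs tested. At an unadjusted p under 0.05 there were 2 of 20 members (10%), let-7d-3p (higher in diabetes) and let-7g-3p (lower), against 8.82% of all miRNAs tested. With a log2 change of at least 1 in addition, the study's threshold, there was 1 (5%), let-7g-3p, against 4.67% of all tested. The groups did not overlap for the same 2 members (10%), against 14.9% of all tested. The members' shares were therefore near the background in each case. let-7g-3p had 0 reads in all 3 diabetic libraries and passed the filter only through the normal ones. Its groups therefore could not overlap, so its place in the count without overlap carries no information. Its place in the other counts rests on the same values of 0. The edgeR quasi-likelihood test on the recovered reads also gave 0 members with an adjusted p under 0.05 and 2 at an unadjusted p under 0.05, and the DESeq2 Wald test gave 0 and 1. Over all 578 miRNAs these tests gave 2 and 1 with an adjusted p under 0.05, none of them a member. The labels do not say that the 3 samples of a group came from separate animals, and p-values measure only the spread between these samples.

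The 5p members, usually the strands that act on targets, differed little between the groups. Their log2 changes (diabetic minus normal, on the log2(CPM + 1) scale) ran from -0.13 to 0.24 with a median of 0.0016, beside a median of 0.0046 over all tested miRNAs. The median size of change was 0.05 for the 9 5p members, 0.35 for all 578 tested miRNAs and 0.13 for the 150 with at least 100 reads on average.

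let-7g-5p was at 29449, 26561 and 27630 CPM in diabetic replicates 1, 2 and 3 and at 25258, 26775 and 23283 CPM in normal replicates 1, 2 and 3. The 2 highest libraries were diabetic, but normal replicate 2 exceeded diabetic replicate 2, so the groups overlapped. The means were 27880 ± 1460 and 25105 ± 1751 CPM (mean ± SD over 3 libraries), so that the log2 change came to 0.15 (SE 0.08, adjusted p = 0.669 by limma; exact permutation p = 0.2). The 95% interval of the change ran from -1.90% to 25.9%. For let-7g-5p the log2 change was 0.10 without normal replicate 3, and 0.20 with an unadjusted p of 0.0411 in limma without normal replicate 2.

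let-7i-5p was at 13690, 12477 and 14105 CPM under diabetes and at 12205, 12972 and 9322 CPM in the normal group. Normal replicate 3 was the lowest of all, and normal replicate 2 exceeded diabetic replicate 2. The log2 change was 0.24 (SE 0.11, adjusted p = 0.551 by limma; exact permutation p = 0.2), with an interval from -0.01 to 0.48. Without normal replicate 3 it was 0.09, and in 5 of its 15 alternative settings its unadjusted p was under 0.05.

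let-7f-5p was at 18109, 16060 and 17146 CPM under diabetes and at 17803, 17467 and 14534 CPM in the normal group. Normal replicate 3 was again the lowest, and the other 5 libraries were intermixed. The log2 change was 0.05 (SE 0.10, adjusted p = 0.846 by limma; exact permutation p = 0.8), and its sign turned with TMM factors and without normal replicate 3.

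let-7c-5p was at 10076, 10442 and 9992 CPM under diabetes and at 11022, 12020 and 10296 CPM in the normal group. The 2 highest libraries were normal, and only diabetic replicate 2 overlapped the normal range. The resulting log2 change was -0.13 (SE 0.09, adjusted p = 0.728 by limma; exact permutation p = 0.2), and -0.07 without normal replicate 2.

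let-7a-5p was at 8907, 8147 and 8399 CPM under diabetes and at 8440, 8934 and 8057 CPM in the normal group. The ranges nearly coincided, and the log2 change was 0.0016 (SE 0.09, adjusted p = 0.991 by limma; exact permutation p = 1). The 95% interval ran from -12.0% to 13.9%.

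miR-98-5p, which shares the let-7 seed under another name, was at 291.3, 252.7 and 263.9 CPM under diabetes and at 326.4, 282.2 and 230.1 CPM in the normal group. The diabetic values lay inside the normal range. Its log2 change was -0.04 (SE 0.18, adjusted p = 0.921 by limma; exact permutation p = 0.9). let-7f, made from a hairpin beside that of miR-98 and from another on chromosome 17, gives no measure of that locus alone.

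The other 5p members, let-7b-5p, let-7d-5p and let-7e-5p, had log2 changes of -0.07, -0.05 and 0.03 and overlapping groups. let-7b-5p was at 3418, 3406 and 3444 CPM under diabetes and at 3434, 3898 and 3469 CPM in the normal group. The 3 diabetic values of let-7b-5p differed by less than counting error, with a coefficient of variation of 0.567% where counting alone gives 2.73%. For let-7g-5p the variation between replicates was 5.24% under diabetes and 6.97% in the normal group, well above the 0.957% and 0.906% of counting.

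**Figure D2:**
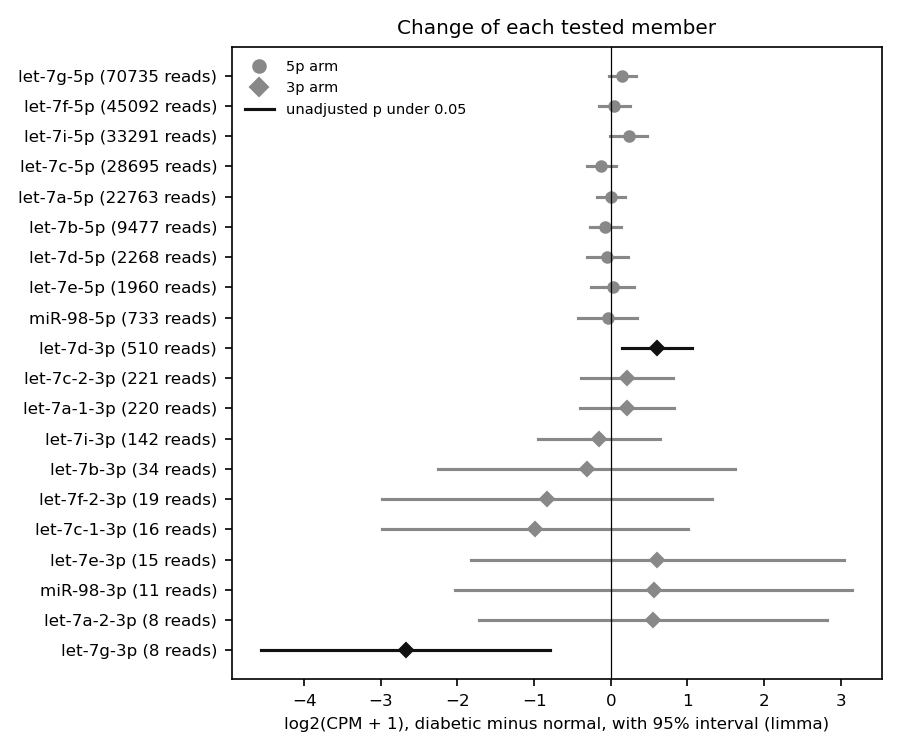
Difference of log2(CPM + 1), diabetic minus normal, for the 20 tested members with its 95% interval from limma, ordered by abundance, with the reads over the 6 libraries in brackets. Circles are 5p and diamonds 3p members; the 5p changes lie between -0.13 and 0.24, and only the intervals of let-7d-3p and let-7g-3p (black, unadjusted p under 0.05) leave out 0, the latter at or under 3 reads in every library so that its plotted size depends on the pseudocount.

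The make-up of the family was compared next. These shares and ratios were examined after the single values had been seen, and they are given as a description with no test. They do not depend on the library total or on any scaling factor. let-7g-5p took 34.5%, 33.7% and 33.4% of the 5p reads of the family in diabetic replicates 1, 2 and 3 and 31.5%, 31.9% and 33.0% in normal replicates 1, 2 and 3. Every diabetic library lay above every normal one. let-7i-5p took 16.0%, 15.8% and 17.1% under diabetes and 15.2%, 15.5% and 13.2% in the normal group, again without overlap. let-7c-5p was the reverse, at 11.8%, 13.2% and 12.1% under diabetes and 13.7%, 14.3% and 14.6% in the normal group. let-7a-5p took 10.4%, 10.3% and 10.2% under diabetes and 10.5%, 10.6% and 11.4% in the normal group, with a gap between the groups that was small beside the normal spread. The groups overlapped for the other 5 members. Shares within other sets of miRNAs were not computed, so no background of the same kind stands beside these. Among single levels the groups did not overlap for 14.9% of all tested miRNAs. In means, let-7g-5p was 1.74 percentage points higher and let-7i-5p 1.68 points higher in diabetes, and let-7c-5p was lower by 1.84 points, from 14.2% ± 0.422 to 12.4% ± 0.762 (mean ± SD over 3 libraries). Without normal replicate 3 the difference for let-7i-5p was 0.964 points, and that for let-7a-5p moved from -0.55 to -0.28 points. Shares sum to the whole, so a gain of one member lowers the others.

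**Figure D3:**
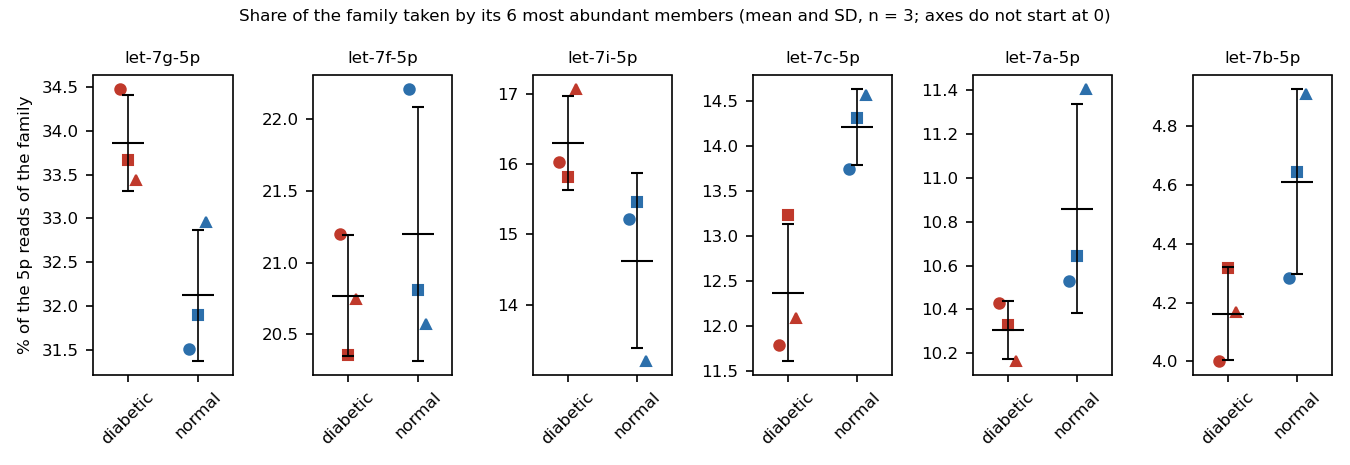
Share of the 5p reads of the family taken by its 6 most abundant members in each library, in percent, with the mean and SD of 3 libraries per group; each panel has its own axis, which does not start at 0. The diabetic libraries lie above the normal ones for let-7g-5p (33.4% to 34.5% against 31.5% to 33.0%) and let-7i-5p, and below them for let-7c-5p and let-7a-5p.

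Ratios between members were also taken within each library. The 6 members with at least 1000 CPM form 15 pairs. The groups did not overlap for 8 of the 15 pairs. These 8 set let-7g-5p or let-7i-5p against let-7f-5p, let-7c-5p, let-7a-5p or let-7b-5p. In each of them let-7g-5p or let-7i-5p was relatively higher in diabetes. The groups overlapped for the 7 other pairs. This grouping of the pairs was made after the values had been seen, so it restates them and is no separate result. Among ratios of 2 non-members of at least 1000 CPM, the groups did not overlap for 23.9% of 2926 pairs. The pairs of each set share members and are not independent. For example, let-7g-5p over let-7a-5p was 3.31, 3.26 and 3.29 under diabetes and 2.99, 2.997 and 2.89 in the normal group, with means of 3.29 ± 0.0232 and 2.96 ± 0.0605 (mean ± SD over 3 libraries). let-7g-5p over let-7c-5p was 2.92, 2.54 and 2.77 under diabetes and 2.29, 2.23 and 2.26 in the normal group. For both ratios the difference of the means exceeded the SD of either group, which adds little, since their groups were already apart. let-7i-5p over let-7c-5p was 1.36, 1.19 and 1.41 under diabetes and 1.11, 1.08 and 0.905 in the normal group. By contrast some pairs were separated only narrowly. For let-7g-5p over let-7f-5p the lowest diabetic ratio was 1.61 and the highest normal one 1.60. For let-7f-5p over let-7i-5p the highest diabetic ratio was 1.32 and the lowest normal one 1.35. For let-7i-5p over let-7b-5p the lowest diabetic ratio was 3.66 and the highest normal one 3.55. let-7g-5p over let-7i-5p overlapped, at 2.08 ± 0.105 and 2.21 ± 0.249 (mean ± SD over 3 libraries).

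let-7g-5p and let-7i-5p are the members that carry G12U and U18C relative to let-7a-5p, as the sequences above show. let-7f-5p has another change at the same place, G12A. Any bearing of these bases on the ratios was not tested. The sums of the endothelial and testis marker lists were also higher in the diabetic libraries, and their part in these ratios was not tested.

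**Figure D4:**
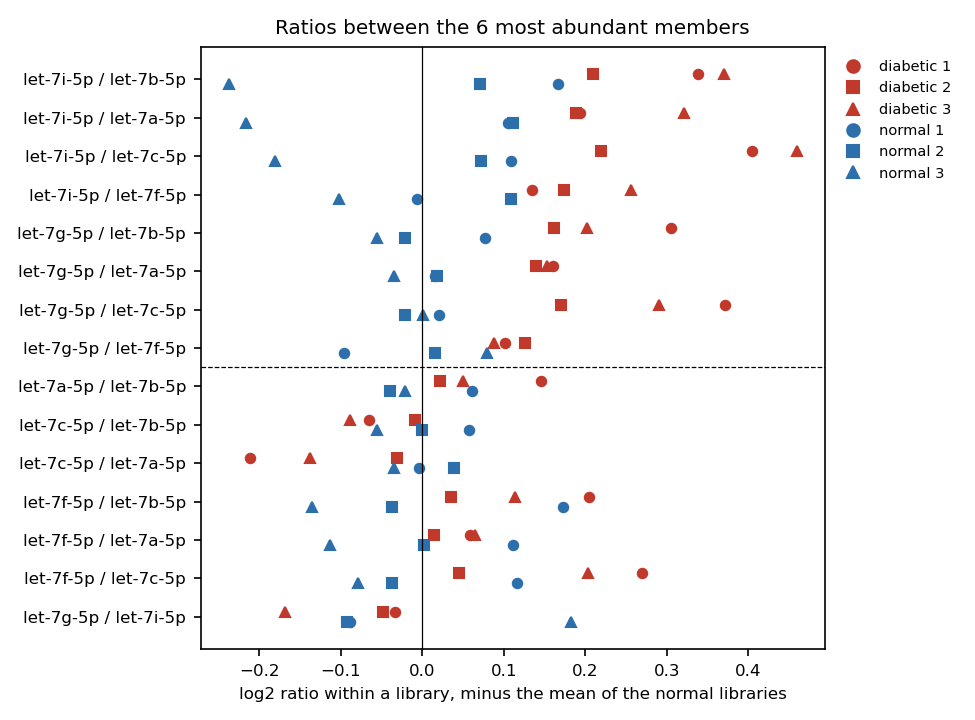
Ratios between the 6 most abundant members in each library, as log2 and relative to the mean of the normal libraries, one row per pair. Above the dashed line are the 8 pairs of let-7g-5p or let-7i-5p over another member. There every diabetic (red) point lies to the right of every normal (blue) one. Below the line are the 7 other pairs, where the groups overlap. The rows were grouped in this way after the values had been seen.

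let-7d-3p was the most abundant 3p member. It was at 235.7, 250.0 and 209.3 CPM in diabetic replicates 1, 2 and 3, from 72, 93 and 115 reads, and at 122.4, 146.2 and 196.2 CPM in normal replicates 1, 2 and 3, from 54, 72 and 104 reads. Every diabetic library exceeded every normal one, but diabetic replicate 3 and normal replicate 3 were close, and their 95% Poisson intervals of 172.8 to 251.2 and 160.3 to 237.7 CPM overlapped. The means were 231.7 ± 20.6 and 154.9 ± 37.7 CPM (mean ± SD over 3 libraries). The log2 change was 0.60 (SE 0.21) and its 95% interval ran from 0.14 to 1.06 (limma adjusted p = 0.348, and from 0.302 to 0.65 over its alternatives; exact permutation p = 0.1, the smallest that 3 against 3 allows). Its unadjusted p was under 0.05 in 14 of 15 alternatives. The exception was the fit without normal replicate 1, where the log2 change was 0.45.

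let-7d-5p, the 5p strand of the same hairpin, was at 743.1, 830.5 and 897.3 CPM under diabetes and at 883.9, 850.6 and 811.1 CPM in the normal group, with overlapping groups and a log2 change of -0.05 (SE 0.13, adjusted p = 0.874 by limma; exact permutation p = 0.7). Whether the 2 strands differ can be read from the share of let-7d reads that came from the 3p arm, which is free of the library total. It was 24.1% (95% Wilson interval 19.6 to 29.2), 23.1% (19.3 to 27.5) and 18.9% (16.0 to 22.2) in diabetic replicates 1, 2 and 3, and 12.2% (9.44 to 15.5), 14.7% (11.8 to 18.1) and 19.5% (16.3 to 23.0) in normal replicates 1, 2 and 3. Normal replicate 3 lay above diabetic replicate 3. The means of 22.0% ± 2.75 and 15.4% ± 3.72 (mean ± SD over 3 libraries) gave an exact permutation p of 0.2, or 0.3 adjusted over the 3 hairpin families with enough reads. With 3 against 3 the exact permutation p cannot go below 0.1, so this test could not have passed 0.05. The difference of 6.61 percentage points was larger than either SD and lay between 4.97 and 8.63 points without any one library, while the groups overlapped through replicate 3 of each.

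**Figure D5:**
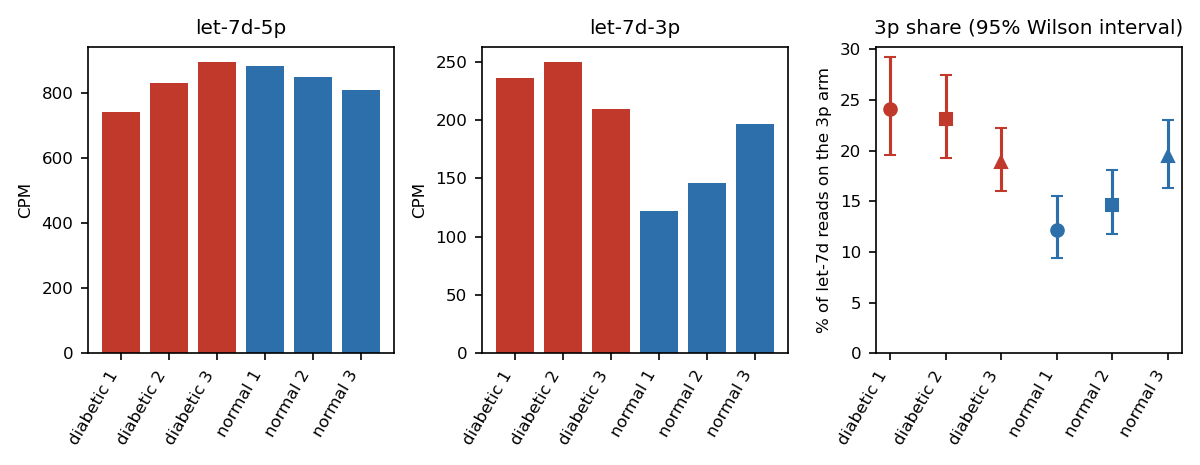
let-7d in the 6 libraries: CPM of the 5p strand, CPM of the 3p strand, and the percent of let-7d reads on the 3p arm with its 95% Wilson interval. The 3p strand is higher in all 3 diabetic libraries (209.3 to 250.0 against 122.4 to 196.2 CPM), the 5p strand is not, and the 3p share of normal replicate 3 (19.5%) reaches that of diabetic replicate 3 (18.9%).

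The 3p share of let-7d lay above those of let-7a, let-7c and let-7i in 6 of 6 libraries. For let-7a, with both of its 3p entries, the share was between 0.786% and 1.38% in every library, and for let-7c between 0.691% and 1.02%. For let-7i it was between 0.215% and 0.514%. Over the 6 libraries let-7a-1-3p held 220 reads and let-7c-2-3p 221, beside 8 for let-7a-2-3p and 16 for let-7c-1-3p. How reads were split between the identical let-7a-1-3p and let-7c-2-3p was not given. The 3p shares of let-7a and let-7c, their p-values and the adjustment over 3 families are uncertain to that extent. For let-7a the means were 1.09% ± 0.296 in diabetic and 0.909% ± 0.0613 in normal libraries (mean ± SD over 3 libraries; exact permutation p = 0.4, adjusted 0.4), and for let-7c 0.921% ± 0.127 and 0.755% ± 0.075 (mean ± SD over 3 libraries; exact permutation p = 0.2, adjusted 0.3). Summed over all 12, the 3p members took 540.2, 483.8 and 473.2 CPM under diabetes and 349.1, 450.7 and 432.1 CPM in the normal group. The diabetic libraries were all higher, and let-7d-3p, whose own groups did not overlap, made up much of each sum. Of the 11 tested 3p members, 6 were higher and 5 lower in diabetes. The separation of the sums is therefore not shown to extend beyond let-7d-3p. Among single levels the groups did not overlap for 14.9% of all tested miRNAs.

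let-7g-3p, the minor strand of the most abundant member, was without a read (0) throughout the diabetic group, whereas the normal libraries held 2, 3 and 3 reads. All 6 libraries were at or under 3 reads, so no fold is given. By the Poisson intervals used for let-7d-3p, a count of 0 allows up to 12.1, 9.92 and 6.71 CPM in diabetic replicates 1, 2 and 3. The normal values of 4.5, 6.1 and 5.7 CPM lie below all of these limits. The intervals of normal replicates 1, 2 and 3 were 0.55 to 16.4, 1.26 to 17.8 and 1.17 to 16.5 CPM. Each of them overlapped every diabetic interval. For let-7g-3p the unadjusted p was 0.00843 and the adjusted p 0.348 in limma, with adjusted p from 0.00318, in the fit without the trend, to 0.774 over its alternatives. The exact permutation p was 0.1, the smallest possible. With 0 reads in all diabetic libraries, the filter could be passed only through the normal ones. That permutation p was therefore fixed in advance and carries no information, and the limma p-values rest on the same values of 0. The groups were thus set apart by at most 3 reads a library, where let-7g-5p had from 8996 to 15181.

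The remaining 3p members were scarce. let-7a-1-3p and let-7c-2-3p, the identical pair, both had a log2 change of 0.21 (SE 0.29 and 0.28) and overlapping groups. let-7i-3p had from 9 to 33 reads and a log2 change of -0.15 (SE 0.37). The 7 others besides let-7g-3p held from 6 to 34 reads over the 6 libraries together. let-7f-1-3p, the member left out by the filter, had 0 reads in 4 libraries and 2 and 4 in normal replicates 1 and 2. let-7e-3p had 10 reads in diabetic replicate 3 and at most 3 elsewhere, and let-7b-3p had 17 in normal replicate 2 and at most 6 elsewhere. Single libraries therefore set the means of both.

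Several let-7 genes share a primary transcript with members of the miR-99, miR-100 and miR-125 families, known as the let-7 clusters. Of 11 listed strands of miR-99a, miR-99b, miR-100, miR-125a and miR-125b, 10 were tested, 0 had an adjusted p and 0 an unadjusted p under 0.05 in limma, and 6 were higher and 4 lower in diabetes with a median log2 change of 0.06. miR-99a-5p, encoded beside let-7c-1, was at 26706, 20126 and 28580 CPM under diabetes and at 33567, 34806 and 24058 CPM in the normal group. The groups overlapped through normal replicate 3, and the log2 change was -0.29 (SE 0.14, adjusted p = 0.551 by limma). miR-125b-5p, a regulator of differentiation encoded near let-7a and let-7c, was at 11009, 11961 and 12141 CPM under diabetes and at 12391, 14558 and 12669 CPM in the normal group. These groups did not overlap, and miR-125b-5p had a log2 change of -0.17 (SE 0.09, adjusted p = 0.634 by limma), beside -0.13 for let-7c-5p. The groups of miR-99b-5p, encoded beside let-7e, did not overlap either, at a log2 change of 0.09 (SE 0.09, adjusted p = 0.795 by limma). Over all tested miRNAs the groups did not overlap for 14.9%, and 8.82% had an unadjusted p under 0.05 in limma. These partners are therefore not set apart from the background.

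Among 141 non-members with at least 100 reads on average, the 3 whose level ran most like the summed 5p level over the 6 libraries were miR-129-5p (Pearson r = 0.95, Spearman rho = 0.77), miR-143-3p (0.83 and 0.77) and miR-499-5p (0.83 and 0.83). These correlations rest on 6 libraries that share their totals, and they are a description. miR-129-5p was, like the 5p sum, lowest in normal replicate 3, at 433.9 CPM against 642.4 to 824.9 CPM in the other 5 libraries.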

How the data were processed

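Small RNA was sequenced single-end from total RNA of 6 rat testis samples. The labels' extraction protocol is that of a poly(A) library, whereas miRNA sequencing is what the study's methods and the table itself hold, and this was followed. The paper names another record for its sequencing data than the one these files come from, and it was taken to describe them because organism, tissue, groups and week match. According to its methods the authors trimmed adaptors, annotated known miRNAs against miRBase, expressed levels as CPM and screened with DESeq. The submitters' processing notes also name Bowtie 0.12.2, HISAT2 2.0, StringTie 1.3.0 and the mouse build mm8, without roles. The miRBase release was not given in the sources used here. The deposited values were CPM rounded to 1 decimal, under headings that say TPM.

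Reads per miRNA were recovered by dividing by what 1 read was worth in CPM, and 100% of values came out whole within 0.05 CPM. Totals were 305476, 372049 and 549446 reads in diabetic and 441214, 492592 and 530132 in normal replicates 1, 2 and 3. Within groups, libraries differed by more than counting noise (chi-square per degree of freedom from 6.47 to 20.0), so all 6 were counted. This does not show that the samples came from separate animals.

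The main test across all miRNAs was limma 3.58.1 in R 4.3.3 (eBayes with a mean-variance trend) on log2(CPM + 1), two-sided, with Benjamini-Hochberg adjustment, after a filter that asked for 1 CPM or more in 3 or more libraries. The pseudocount understates changes of scarce miRNAs. Single values were compared with two-sided exact permutation tests (scipy 1.17.1). The 3p share was tested only where both arms had at least 50 reads together and the rarer at least 10 in every library. Values in each library are given for the listed members, the 5 most abundant, miR-98 and any member whose groups did not overlap or whose unadjusted p was under 0.05. Alternatives were a pseudocount of 0.1, no trend, dropping the filter, asking for 10 or more reads throughout, TMM and DESeq2 factors, a replicate block, edgeR 4.0.16 and DESeq2 1.42.0 on recovered reads, and leaving out each library. The limma, edgeR and DESeq2 fits were tested on simulated counts with a fixed dispersion. The read recovery, shares, ratios and permutation tests were not tested in this way. The members and lists were chosen with earlier results of these data known. Sequences came from RefSeq, GRCr8.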

Additional observations from a re-analysis of the deposited data

How the results depend on the processing

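For the members' log2 changes there were 172 comparisons with other settings. Of these 161 kept direction and side of an unadjusted p of 0.05, 8 turned in sign, 2 newly passed and 1 no longer passed. Leaving out 1 library gave 114 comparisons, with 90, 19, 4 and 1. The 2 members at an unadjusted p under 0.05 became 4 with no filter (let-7f-1-3p and let-7i-5p were added), 1 under a minimum of 10 reads per library, 1 by the DESeq2 Wald test, and from 1 to 3 when one library was left out. let-7d-3p passed in all of these but the fit without normal replicate 1. let-7g-3p was removed by the read minimum and by the filter without any normal library, and it did not pass in the DESeq2 Wald test. The 0 members with an adjusted p under 0.05 became 1 without the trend, let-7g-3p, whose diabetic values are all 0. The 1 member past both thresholds became 2 with no filter, 0 under a minimum of 10 reads per library, 0 by the DESeq2 Wald test, and from 0 to 1 without one library. It was 0 without each normal library, because let-7g-3p then fails the filter. The 2 members whose groups did not overlap became 4 with TMM factors and 5 with DESeq2 size factors, let-7b-5p, let-7c-5p and, for the latter, let-7g-5p being added, while the share over all tested miRNAs was 14.7% and 15.6%. That count under other scalings was chosen after seeing the data, and these scalings moved the median log2 change of all tested miRNAs from 0.0046 to -0.04 and -0.03.

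Signs turned only for changes near 0 or for scarce strands. let-7a-5p moved to -0.0487 with TMM factors, -0.0305 with DESeq2 size factors, -0.0257 in edgeR and -0.0305 in DESeq2. let-7e-5p moved to -0.0225 with TMM factors, -0.0043 with DESeq2 size factors and -0.0046 in DESeq2, and let-7f-5p to -0.003 with TMM factors. Without one library the log2 change ranged from -0.0345 to 0.0401 for let-7a-5p, -0.1102 to 0.0257 for let-7d-5p, -0.0567 to 0.0944 for let-7e-5p, -0.0457 to 0.1007 for let-7f-5p and -0.1744 to 0.0768 for miR-98-5p. For 3p strands it ranged from -0.2277 to 1.4888 for let-7a-2-3p, -1.1624 to 0.5512 for let-7b-3p, -0.464 to 1.6675 for let-7e-3p, -1.8388 to 0.2217 for let-7f-2-3p, -0.3232 to 0.178 for let-7i-3p and -0.0426 to 1.4447 for miR-98-3p. The cause was not tested. The summed 5p difference kept its sign in every setting run for it (263.9 to 6911 CPM), as did the 3p shares of let-7a, let-7c and let-7d and, of the shares within the family, those of let-7g-5p, let-7i-5p, let-7c-5p, let-7a-5p and let-7b-5p, without one library.

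Same-numbered samples were not stated to be paired, and their deviations from the group means correlated at -0.113, -0.073 and -0.057 over 296 miRNAs. With the replicate block 3 members had an unadjusted p under 0.05 (let-7i-5p was added) and 0 an adjusted one. Depth limits the 3p strands, 8 of which held under 35 reads in all.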
